A study of Mus musculus with 2 samples.

Results

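Macrophages and other leukocytes of the mouse ureter were followed through 32 genes, listed by name as macrophage and leukocyte genes. The choice was made with earlier results of these data known. The arrays carry 42 oligos for these 32 genes, of 39429 oligos for 30011 genes in all. For 29 of the 32 genes an oligo passed the filter on dim spots, and the other 3 (Spi1, Cd163 and Cybb) are given as levels only. The members comprise surface proteins shared by leukocytes, receptors of macrophages, signalling adaptors, complement chains, lysosomal proteins, integrins and actin regulators, and chemokines.

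RNA was taken from ureters dissected from NMRI mouse embryos at E14.5. Rbpj-cKO embryos were Tbx18(cre/+);Rbpj(fl/fl), which means that both copies of Rbpj were floxed and Cre recombinase was made from the Tbx18 locus. Rbpj is the factor through which activated Notch receptors act on DNA. Tbx18 marks the ureteric mesenchyme, and is not known as a gene of the macrophage lineage. Control embryos are labelled Rbpj(fl/?), and the labels say neither what the other allele was nor whether controls carried Cre. The number of embryos behind a channel is not stated either. Both genotypes were hybridised together on each of 2 Agilent arrays from 150 ng of total RNA per labelling. On replicate 1 the embryos were male and Rbpj-cKO RNA was red. On replicate 2 they were female and Rbpj-cKO RNA was green, so the effects of sex and of dye orientation cannot be told apart.

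Macrophages are the first immune cells to settle in embryonic organs, where they arise from yolk sac and fetal liver progenitors. They depend on the growth factor receptor Csf1r and on the transcription factor PU.1, and they clear dying cells through phagocytic receptors, Fc receptors and complement C1q. Most of the genes below are made by macrophages, while Ptprc, Cd52, Cd53, Laptm5, Itgb2, Lcp1 and Coro1a mark leukocytes in general, Lyve1 is also made by lymphatic endothelium, Pf4 by megakaryocytes and Cd36 by endothelium and other cells.

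Levels are the scanner software's processed signals (arbitrary linear units, mean of an oligo's spots), are not scaled between the arrays, and are set against each other within an oligo. For lists, levels are also summed over their oligos, and such a sum is led by the brightest. Ratios are log2 of Rbpj-cKO over control after background correction and loess, given for replicate 1 and then replicate 2, or as mean ± SD of n = 2 arrays. Because ratios and levels come from differently processed signals, a ratio can differ from the quotient of the levels. The gap is wide for dim oligos, whose ratios are drawn towards 0 by the offset of 50 in the background correction. P2ry12, a gene outside the members, had 31.8 and 91.9 in the male pair but a ratio of 1.06, or 2.08-fold. Between 67.7% and 70.1% of the spots of a channel were well above background. Rbpj itself had 1851 in male control, 831 in male Rbpj-cKO, 1199 in female control and 773 in female Rbpj-cKO, and log2 ratios of -1.13 and -0.63. Its other oligo gave -0.48 and -0.37, and the labels do not say whether either oligo falls in the deleted exons. The ureter markers Tbx18 (mesenchyme), Upk3a (urothelium) and Acta2 (smooth muscle) were well above background on all 4 spots in all 4 channels. The channel labelled female Rbpj-cKO also held signal of the Y-linked gene Ddx3y, with 1781 and 1532 in the male pair, 2.12 in female control (0 of 4 spots well above background) and 123 in female Rbpj-cKO (4 of 4 spots). Each ratio is therefore also given for replicate 1 alone.

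The 29 measured genes were mostly somewhat higher in Rbpj-cKO on the male array and lay around 0 on the female array. Their log2 ratios had a median of 0.285 for the male pair and 0.0163 for the female pair, beside 0.00117 and 0.00464 over all 20495 genes past the filter. On replicate 1, 27 of 29 genes were above 0, where 50.3% of all genes were. On replicate 2, 16 of 29 were above 0, where 51% of all genes were. In both arrays 14 of 29 genes (48.3%) were above 0, against a background of 16.1%, and 0 of 29 were below 0 on both, against 14.7%. For 5 of these 14 (Csf1r, Cx3cr1, Cd14, Cd68 and Coro1a) the ratio on replicate 2 was smaller than the spot SD there. With median centring in place of loess, the count above 0 on both arrays was 5 of 29 against 11.3% of all genes, the members' medians were 0.428 and -0.118, and those of all genes 0.123 and -0.135. These genes share cells and libraries and are not replicates of the condition. In bulk RNA, a change in the number of cells of a type and a change in RNA per cell cannot be told apart.

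No member passed the test. With limma over all 20495 genes, 0 members and 0% of all genes had an adjusted p under 0.05, and every measured member had an adjusted p of 1. At an unadjusted p under 0.05, limma gave 2 members as higher (Adgre1 and Trem2) beside 1.29% of all genes, and 0 members as lower beside 0.527%. No member was at least 1.5-fold higher on both arrays (0.132% of all genes) or at least 1.5-fold lower on both (0.0634%). On replicate 1 alone, 1 member (Cx3cr1) was at least 1.5-fold higher, a share of 3.45% beside 1.4% of all genes. The fit had 1 residual degree of freedom beside 5.57 prior ones, so its p-values rest largely on a spread pooled over all genes. Nothing in the labels says that the arrays came from separate litters, so that spread is only the one between these arrays.

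**Figure D1:**
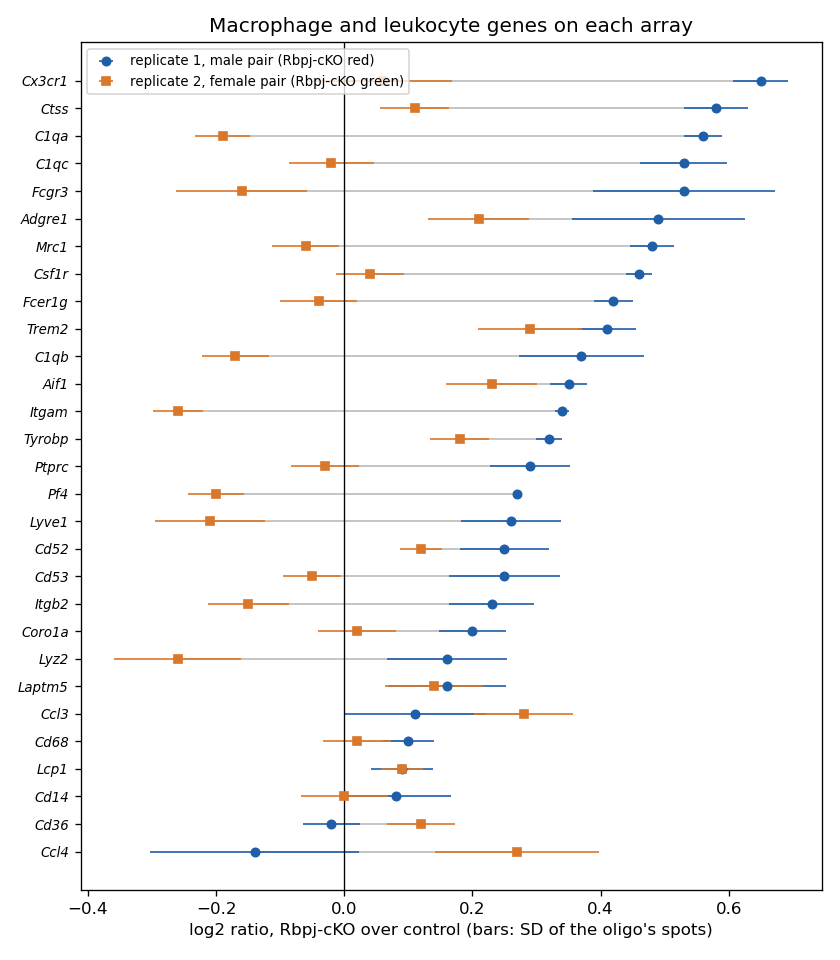
Log2 ratio of Rbpj-cKO over control (horizontal axis) for the 29 measured genes on replicate 1 (circles, male pair) and replicate 2 (squares, female pair); bars are the SD of the oligo's spots on that array. Replicate 1 runs from -0.14 (Ccl4) to 0.65 (Cx3cr1), and replicate 2 from -0.26 to 0.29, with the circle to the right of the square in most genes.

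Several members were measured by more than 1 oligo, and the sequences of those of Cx3cr1 and Itgam are shown because the oligos of each gave different ratios. The first 30 of 60 bases are given 5′ to 3′. The Cx3cr1 oligos lie on the minus strand of chromosome 9 (build mm9, per the file headers). The first pair spans chr9:119957811-119957870 and chr9:119957806-119957865 and shares 55 of 60 bases, and the last spans chr9:119959018-119959077. In lower case throughout, they read:
Cx3cr1, brightest oligo: cgtgcctagagtgtgtctatcccacttgta
Cx3cr1, overlapping oligo: ctagagtgtgtctatcccacttgtaattct
Cx3cr1, separate oligo: caagaatgtcttcatgcattcactgactcc
The Itgam oligos lie on the plus strand of chromosome 7 at chr7:135261755-135261814, chr7:135260275-135260334 and chr7:135212140-135212199. Capitals mark a run of 10 CA units in the brightest:
Itgam, brightest oligo: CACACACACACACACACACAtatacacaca
Itgam, middle oligo: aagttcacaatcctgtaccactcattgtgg
Itgam, first oligo: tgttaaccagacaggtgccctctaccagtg

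The receptors for growth factor and chemokine had a median ratio of 0.557 on replicate 1 and 0.054 on replicate 2. Cx3cr1, the fractalkine receptor of tissue macrophages and microglia, had 733 in male control, 1155 in male Rbpj-cKO, 771 in female control and 825 in female Rbpj-cKO. Scaled between arrays on the log2 scale, its channels stood at 11.19, 11.84, 11.49 and 11.55, male control the lowest and male Rbpj-cKO the highest. The log2 ratios were 0.65 and 0.06, a mean of 0.36 ± 0.42 (limma adjusted p = 1), or 1.57-fold and 1.05-fold. Its overlapping oligo gave 0.61 and 0.15, while the separate oligo gave 0.41 and -0.22. All 3 oligos were thus above 0 on replicate 1, and on replicate 2 they lay on both sides of 0.

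Csf1r, the receptor for the macrophage growth factors Csf1 and Il34, had 1903 in male control, 2616 in male Rbpj-cKO, 1838 in female control and 1912 in female Rbpj-cKO. The scaled log2 levels were 12.42, 12.88, 12.58 and 12.62, with the same channels lowest and highest. Ratios were 0.46 and 0.04, a mean of 0.25 ± 0.30. The other Csf1r oligos gave 0.24 and -0.17, and 0.32 and -0.29, so the sign on replicate 2 depended on the oligo. Spi1, which encodes PU.1, was not well above background on any spot, at 2.10 to 2.51 in the 4 channels, and has no ratio here.

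Genes of proteins found on leukocytes in general had median ratios of 0.252 and 0.0433. Ptprc, the CD45 phosphatase, had 28.7 in male control, 38.5 in male Rbpj-cKO, 29.1 in female control and 28.4 in female Rbpj-cKO, with ratios of 0.29 and -0.03. Cd53, a tetraspanin, ran likewise at 23.4, 31.8, 24.8 and 23.0 in the same order, with ratios of 0.25 and -0.05. The scaled log2 levels, in that order, were 7.30, 7.58, 7.44 and 7.41 for Ptprc and 7.14, 7.39, 7.34 and 7.29 for Cd53. In both genes male control was the lowest and male Rbpj-cKO the highest, for Cd53 by little over female control.
Cd52, a small glycosyl-phosphatidylinositol-anchored protein, had 233 and 277 in male control and Rbpj-cKO and 193 and 215 in the female pair, with ratios of 0.25 and 0.12. Laptm5, a lysosomal membrane protein of blood cells, had 107 and 119 in the male pair and 75.4 and 86.4 in the female pair, and ratios of 0.16 and 0.14. Rbpj-cKO was the higher channel on both arrays for these 2 genes, and means were 0.18 ± 0.0938 and 0.15 ± 0.0127. A second Laptm5 oligo gave 0.13 and 0.09.

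Most surface receptors of macrophages were either above 0 on both arrays or above 0 on the male array alone. Trem2, a lipid-sensing phagocytic receptor, had 364 in male control, 486 in male Rbpj-cKO, 287 in female control and 359 in female Rbpj-cKO (oligo at chromosome 17, 48491537 to 48491596). Rbpj-cKO exceeded control in each pair, with ratios of 0.41 and 0.29 and a mean of 0.35 ± 0.0898 (limma adjusted p = 1). Adgre1, which encodes the F4/80 antigen and is named Emr1 on the array, had 168, 242, 150 and 181 in the same order (chromosome 17, 57622868 to 57622927). Its ratios were 0.49 and 0.21, a mean of 0.35 ± 0.20 (limma adjusted p = 1), and its other oligo gave 0.28 and 0.18. The spot SD of Adgre1 on replicate 1 was 0.135, against a median of 0.0573 over all oligos.

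Fcgr3, an activating Fc receptor, had 51.2 in male control, 83.4 in male Rbpj-cKO, 61.5 in female control and 53.2 in female Rbpj-cKO. Mrc1, the mannose receptor, had 465, 651, 411 and 396 in that order. The pairs ran in opposite directions for both genes, with ratios of 0.53 and -0.16 for Fcgr3 and 0.48 and -0.06 for Mrc1. Lyve1, a hyaluronan receptor, had 136 and 163 in the male pair and 128 and 112 in the female pair, giving 0.26 and -0.21. The mean of Lyve1 was 0.02 ± 0.33, so its arrays cancelled.
Cd14, a co-receptor for bacterial lipopolysaccharide, and Cd36, a scavenger receptor for lipids, lay nearest to 0. Cd14 had 106 and 111 in the male pair and 85.9 and 89.1 in the female pair, with ratios of 0.08 and 0.00. Cd36 had 115 and 110, then 98.4 and 112, with ratios of -0.02 and 0.12, so its male pair differed by less than the spot SD of 0.044. Cd163, a haemoglobin scavenger receptor, was not well above background on any spot, at 2.06 to 2.16.

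The adaptors that link these receptors to kinases are short membrane proteins with signalling motifs. Tyrobp (DAP12), the partner of Trem2, had 904 in male control, 1128 in male Rbpj-cKO, 736 in female control and 856 in female Rbpj-cKO. Rbpj-cKO was higher on both arrays, at 0.32 and 0.18, a mean of 0.25 ± 0.10 (limma adjusted p = 1). Fcer1g, the common gamma chain of Fc receptors, had 722 and 964 in the male pair and 631 and 622 in the female pair, with ratios of 0.42 and -0.04. The ratios of Tyrobp had the signs of those of Trem2, and the ratios of Fcer1g those of Fcgr3. These sign patterns were found in 14 and 13 of the 29 measured members, and in 16.1% and 34.3% of all genes.

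All 3 chains of complement C1q, the recognition molecule of the classical pathway, were above 0 on replicate 1 and below 0 on replicate 2. C1qa had 191 in male control, 286 in male Rbpj-cKO, 194 in female control and 171 in female Rbpj-cKO, and ratios of 0.56 and -0.19. C1qb had 227, 296, 224 and 201, and ratios of 0.37 and -0.17. C1qc had 493, 715, 431 and 432, and ratios of 0.53 and -0.02. The 3 genes sit side by side on chromosome 4, their oligos lying between 136436578 and 136452468. In each the male Rbpj-cKO channel was the highest, and the median ratio of the chains was 0.528 on replicate 1 and -0.166 on replicate 2.

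Of the lysosomal and killing proteins, Ctss stood highest. Ctss, the protease cathepsin S, had 549 in male control, 831 in male Rbpj-cKO, 514 in female control and 560 in female Rbpj-cKO, with ratios of 0.58 and 0.11. On replicate 1 it lay just under the 1.5-fold line of 0.585 on the log2 scale, while Cx3cr1 lay just above it. Cd68, a lysosomal glycoprotein of macrophages, had 897 and 948 in the male pair and 685 and 716 in the female pair, with ratios of 0.10 and 0.02. A dim second oligo of Cd68 gave 0.20 and -0.17. Lyz2, lysozyme M, had 46.2 and 53.4 in the male pair and 34.6 and 25.4 in the female pair, and ratios of 0.16 and -0.26. It was the only measured member with a mean below 0, at -0.05 ± 0.30. Cybb, a subunit of the phagocyte oxidase, was well above background on 1 spot, in male Rbpj-cKO, and at 6.14 to 10.1 in the 4 channels it did not pass the filter.

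The actin regulators shape the migration and phagocytosis of leukocytes, and the integrins their adhesion. Lcp1, the actin-bundling plastin of leukocytes, had 729 and 768 in the male pair and 540 and 582 in the female pair. Its ratios were 0.09 and 0.09, a mean of 0.09 ± 0.00539, and its other oligo gave 0.10 and 0.10. Aif1 (Iba1), an actin-binding protein of macrophages and microglia, had 870 and 1100, then 734 and 885, and ratios of 0.35 and 0.23 (mean 0.29 ± 0.0811, limma adjusted p = 1). Coro1a, the actin regulator coronin of leukocytes, had 895 and 1018, then 714 and 735, and ratios of 0.20 and 0.02. These 3 genes were above 0 on both arrays. Itgb2, the common beta chain of leukocyte integrins, had 40.3 and 49.8 in the male pair and 35.5 and 30.1 in the female pair, with ratios of 0.23 and -0.15.

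For Itgam, the alpha chain CD11b, the value rested on the oligo. The brightest had 7267 in male control, 9240 in male Rbpj-cKO, 6280 in female control and 5223 in female Rbpj-cKO, with ratios of 0.34 and -0.26. This is the oligo that opens with the CA run printed above. Of the other oligos on the arrays, with no filter applied, 31 hold a run of at least 8 CA units. All 31 were above 0 on replicate 1 and below 0 on replicate 2, as were 34.3% of all genes past the filter. Their ratios ran from 0.08 to 0.35 on replicate 1 and from -0.45 to -0.15 on replicate 2, and those of Itgam lay within both ranges. A further 69 oligos with at least 8 TG units ran the same way, with medians of 0.79 and -0.65. The Itgam oligos without the run gave 0.12 and -0.03 (24.5, 28.8, 21.8 and 19.9 in the 4 channels) and 0.02 and 0.10 (21.7, 22.1, 15.7 and 18.2). The part of the repeat in the ratio of the brightest oligo was not tested.

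**Figure D2:**
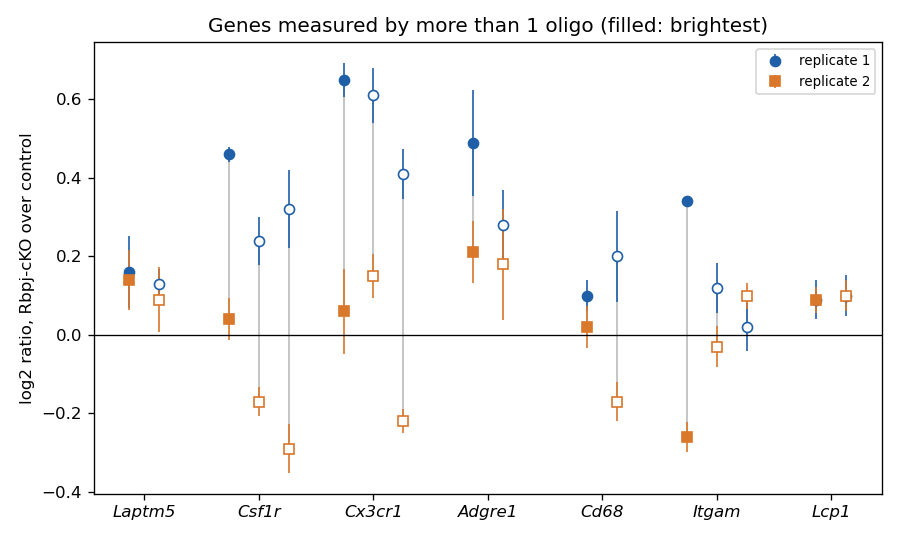
Log2 ratio of Rbpj-cKO over control (vertical axis) for each oligo of the 7 members with more than 1, on replicate 1 (circles) and replicate 2 (squares); filled symbols are the brightest oligo, bars the SD of its spots. The oligos of Lcp1, Laptm5 and Adgre1 lie above 0 on both arrays, while those of Csf1r, Cx3cr1, Cd68 and Itgam fall on both sides of 0 on replicate 2.

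The chemokines are secreted and draw other leukocytes to a site. Ccl3, a chemokine of activated macrophages, had 32.0 in male control, 36.6 in male Rbpj-cKO, 21.7 in female control and 31.5 in female Rbpj-cKO, and ratios of 0.11 and 0.28. Ccl4, its neighbour on chromosome 11, had 32.3, 27.4, 16.6 and 24.4, and ratios of -0.14 and 0.27. Both had their higher ratio on the female array, and both had the lowest channel in female control. Pf4, platelet factor 4, had 1064 and 1285 in the male pair and 921 and 800 in the female pair, with ratios of 0.27 and -0.20. Its signs were those of 13 of the 29 measured members, the C1q chains among them, and of 34.3% of all genes.

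Across roles, 13 of 29 members were above 0 on replicate 1 and below 0 on replicate 2, where 34.3% of all genes were. They were Ptprc, Cd53, Mrc1, Lyve1, Fcgr3, Fcer1g, C1qa, C1qb, C1qc, Lyz2, Itgam, Itgb2 and Pf4. The opposite pattern was found in 2 members, Cd36 and Ccl4, where 34.9% of all genes had it. Over all 20495 genes the ratios of the arrays had r = -0.352 (Spearman rho = -0.473), and over the 29 members r = -0.196 (rho = -0.178). These are descriptions across genes, which share the RNA of 4 channels. The mean of both arrays, in which a dye effect common to them cancels, had a median of 0.152 over the members and -0.00325 over all genes. Replicate 1 minus replicate 2, divided by 2, holds dye and sex, and had a median of 0.157 over the members and -0.0011 over all genes.

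**Figure D3:**
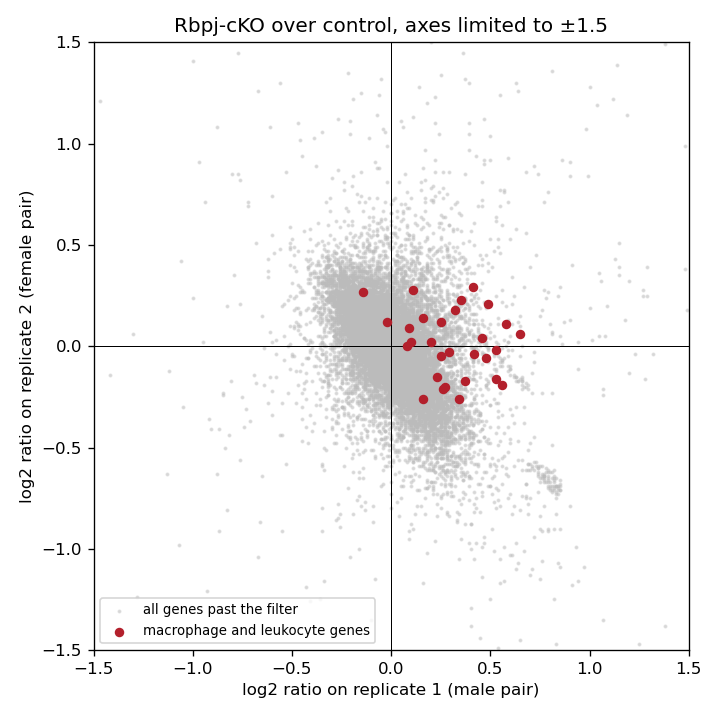
Log2 ratio of Rbpj-cKO over control on replicate 1 (horizontal axis) against replicate 2 (vertical axis) for genes past the filter (grey) and the 29 measured macrophage and leukocyte genes (red); axes are limited to ±1.5. The grey cloud slopes downwards (r = -0.352), and 27 of the 29 red points lie right of 0, none of them below 0 on both axes.

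Set against each other after loess and scaling of the average intensities between arrays, the 4 channels were not alike. In 26 of 29 members (89.7%) the male Rbpj-cKO channel was the highest of the 4, where this held for 24.7% of all genes. The exceptions were Ccl3 and Cd36, highest in female Rbpj-cKO, and Ccl4, highest in male control. Relative to each oligo's own mean over the 4 channels, the members' median log2 level was 0.213 in male Rbpj-cKO, -0.0216 in female Rbpj-cKO, -0.0735 in female control and -0.101 in male control. The lowest channel was male control in 12 members, female control in 10, female Rbpj-cKO in 6 and male Rbpj-cKO in 1. One channel is 1 RNA sample in 1 dye, so what belongs to the sample and what to the dye cannot be told apart.

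**Figure D4:**
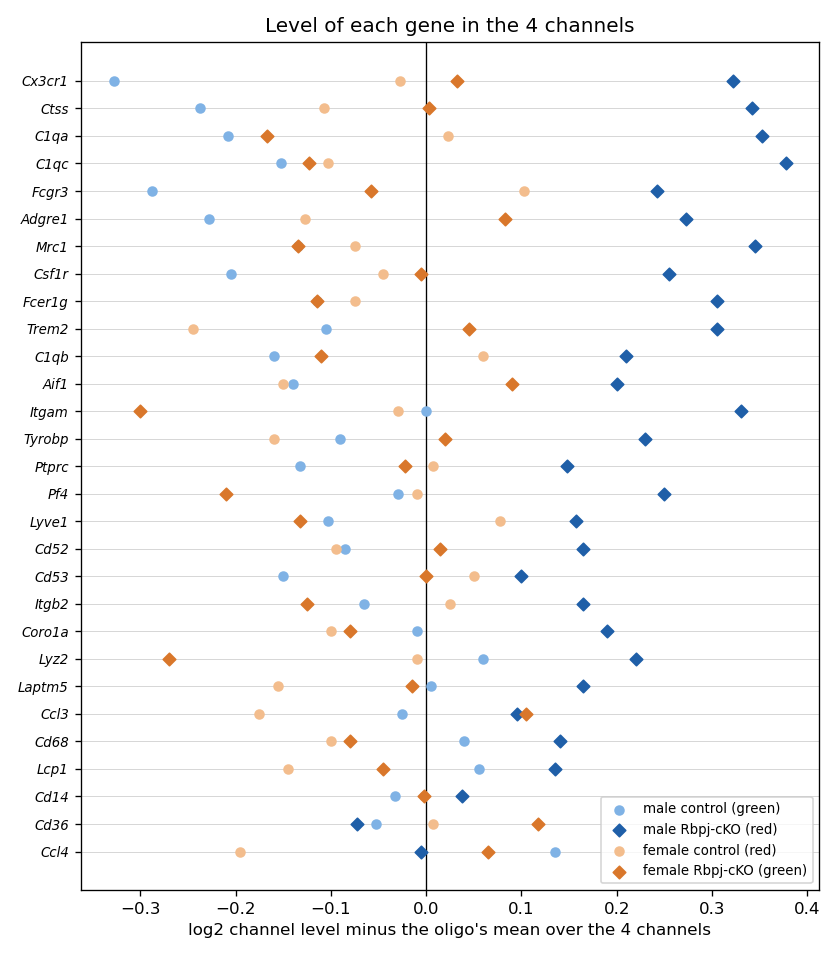
Log2 level of each measured member in the 4 channels, minus the oligo's mean over the 4 (horizontal axis), for male control (light circles, blue), male Rbpj-cKO (dark diamonds, blue), female control (light circles, orange) and female Rbpj-cKO (dark diamonds, orange). The male Rbpj-cKO points lie furthest right in 26 of the 29 genes, while the other 3 channels lie close to or below 0 for most.

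A list of 60 other macrophage and myeloid genes covered further receptors, enzymes and transcription factors of these cells. It was chosen with earlier results of these data known and comes from the same RNA, so it is not independent of the members. Of the 54 past the filter, 32 (59.3%) were above 0 on both arrays, against 16.1% of all genes, and 0 below 0 on both, against 14.7%, with medians of 0.191 and 0.0572. With median centring 25 were above 0 on both, against 11.3% of all genes, with medians of 0.288 and 0.00149. P2ry12, a nucleotide receptor of microglia, had 31.8 in male control, 91.9 in male Rbpj-cKO, 21.1 in female control and 31.8 in female Rbpj-cKO, and ratios of 1.06 and 0.32. Ms4a7, a membrane protein of macrophages, had 287, 420, 206 and 339, and ratios of 0.53 and 0.64, above 0 by a like amount on both arrays (mean 0.59 ± 0.0758, limma adjusted p = 1). Mpeg1, the pore-forming protein perforin-2, had 510, 649, 395 and 521, and ratios of 0.35 and 0.36. Irf8, a transcription factor of the myeloid lineage, had 357, 631, 382 and 423, and ratios of 0.80 and 0.11. Of that list, Siglec1, Dock2, Ccr1 and C5ar1 were not well above background on any spot.

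The ligands of macrophage receptors are largely made by other cells, and the signalling partners of Fc receptors and DAP12 lie downstream in leukocytes. Of 11 measured ligands and chemoattractants, 3 (27.3%) were above 0 and 1 (9.09%) below 0 on both arrays, beside 16.1% and 14.7% of all genes, with medians of 0.0352 and 0.0479. With median centring 0 were above 0 and 2 below 0 on both. Csf1, a ligand of Csf1r, had 492 and 509 in the male pair and 403 and 448 in the female pair, and ratios of 0.06 and 0.14. Cd200, a ligand of an inhibitory myeloid receptor, gave 0.04 and 0.11. The chemokines Ccl12 and Ccl7 gave 0.27 and 0.05, and -0.07 and -0.15, respectively. Csf2 and Csf3, growth factors of granulocytes and macrophages, were not well above background. Of 9 measured kinases, adaptors and receptors of Fc receptor and DAP12 signalling, 1 (the phosphatase gene Inpp5d, 0.08 and 0.13) was above 0 on both arrays and 3 below, shares of 11.1% and 33.3% beside the same 16.1% and 14.7%. Among those below 0 were Syk, a kinase (-0.15 and -0.07), and Plcg2, a phospholipase (-0.04 and -0.00).

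Genes of other blood cells were read in the same channels. The summed level of the 10 neutrophil genes was 2724 in male control, 2458 in male Rbpj-cKO, 649 in female control and 938 in female Rbpj-cKO, with median ratios of -0.0102 and 0.386 over the 8 measured. Mpo, the granule peroxidase, had 203, 267, 54.3 and 73.7, and ratios of 0.38 and 0.31, and Ctsg, a granule protease, gave 0.12 and 0.25. These 2 were the neutrophil genes above 0 on both arrays, and the other 6 measured had opposite signs. S100a8 (-0.14 and 0.59), S100a9 (-0.20 and 0.79), Camp (-0.47 and 0.47) and Ltf (-0.77 and 0.85) were below 0 on replicate 1. Elane (0.18 and -0.13) and Prtn3 (0.15 and -0.28) were below 0 on replicate 2. Mast cell genes (5 of 9 measured, sums of 1238, 1274, 1099 and 913) had medians of 0.293 and -0.0606. Among them Hdc, which makes histamine, had ratios of 0.29 and 0.60, Cpa3, a mast cell protease, 0.27 and 0.03, and the receptor gene Kit -0.17 and -0.35. Cma1, Tpsab1 and Fcer1a of that list were not well above background.
Of 14 T, NK and B lymphocyte genes 6 were measured, with sums of 2348, 2479, 1956 and 1968 and medians of 0.0633 and -0.093. Lck, a kinase of T cells, gave 0.09 and 0.12. Cd3d and Ms4a1, markers of T and B cells, were not well above background. Other markers of these cells were, on all 4 spots in each channel. They were Cd3e (0.08 and -0.26), Cd4 (0.16 and -0.19), Nkg7 (0.04 and -0.11), Cd79a (0.04 and -0.08) and Cd79b (-0.09 and 0.16). Of 5 antigen presentation genes 4 were measured (sums of 290, 304, 235 and 220), H2-Aa was not well above background and H2-Eb1, a class II chain, gave -0.05 and -0.07. The 5 measured of 8 platelet genes had medians of 0.0352 and 0.00887 (sums of 752, 725, 572 and 556), with Itgb3, a platelet integrin chain, at 0.07 and 0.01.

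Markers of other tissues differed between the arrays as well, and their part in the members' ratios was not tested. Erythroid genes (11 of 12 measured) had medians of 0.547 and -0.794, and sums of 143879 in male control, 223768 in male Rbpj-cKO, 175176 in female control and 91346 in female Rbpj-cKO. Of these, 9 were above 0 on replicate 1 and below 0 on replicate 2, whereas Klf1, an erythroid transcription factor (-0.40 and -0.42), and Rhag, a red cell membrane protein (-0.08 and -0.33), were below 0 on both. All 12 striated muscle genes were above 0 on replicate 1 and below 0 on replicate 2, with medians of 0.529 and -0.953 and sums of 12664, 20321, 22512 and 10392. The 7 mesothelial genes had medians of 0.539 and 0.07, and sums of 6868, 8117, 6685 and 5580, the male Rbpj-cKO sum being the highest. That sum was also the highest for the members and the other macrophage and myeloid genes. The same held for the erythroid, endothelial, mast cell, lymphocyte and antigen presentation lists, and sums are not scaled between the arrays. Above 0 on both arrays were Bnc1 (0.81 and 0.07) and Wt1 (0.54 and 0.11), transcription factors of mesothelium, and Upk1b, a tetraspanin (0.07 and 0.09). The other 4 had opposite signs, with Upk3b at 1.28 and -0.16, Lrrn4 at 0.94 and -0.11, Krt19 at 0.08 and -0.57, and Msln at -0.20 and 0.13. Krt19, also a keratin of other epithelia, made up 4284, 4543, 4080 and 2760 of the sums.
The 12 measured of 13 endothelial genes had medians of 0.127 and -0.108 and sums of 12140, 12656, 10460 and 9818, with 3 above and 3 below 0 on both arrays (25% each). They included the vessel receptor gene Tek (-0.14 and -0.39), the scavenger receptor gene Stab2 (0.22 and 0.01), the lipid carrier gene Fabp4 (-0.10 and -0.11) and Emcn, a sialomucin of veins and capillaries (0.11 and 0.09). For comparison, the members' own sums were 19404, 24845, 16875 and 16297, of which the CA-repeat oligo of Itgam made up 7267, 9240, 6280 and 5223.

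**Figure D5:**
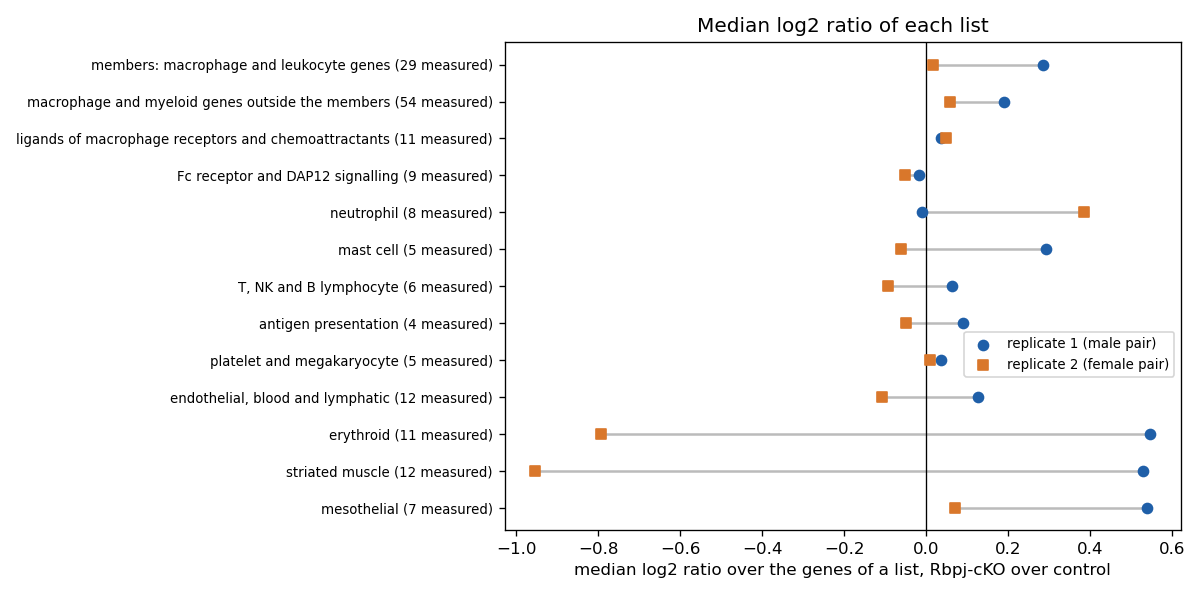
Median log2 ratio of Rbpj-cKO over control (horizontal axis) over the measured genes of each list, on replicate 1 (circles, male pair) and replicate 2 (squares, female pair). The members (0.285 and 0.0163) and the other macrophage and myeloid genes (0.191 and 0.0572) are above 0 on both arrays after loess, as are those of the mesothelial, ligand and platelet lists (the members' median on replicate 2 is -0.118 with median centring instead), while the erythroid and striated muscle lists lie far apart on opposite sides of 0.

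The promoters of the members were read for the letters that PU.1 and RBPJ are known to bind. RefSeq promoters (build GRCm38.p6, 250 bases before to 50 after a start) matched 22 of the 32 members with 26 promoters, beside 32851 promoters in all. On either strand, GAGGAAGT, a PU.1 core, was found in 4 of 26 (15.4%) and in 3.2% of all promoters. The shorter GAGGAA, which is contained in the former, was found in 16 of 26 (61.5%) and in 28.3% of all. GTGGGAA, the RBPJ letters, was found in 0 of 26 and in 6.38% of all. The 4 promoters with the longer PU.1 letters belong to genes of different roles, and 30 bases of each are shown with ACTTCCTC, the other strand of GAGGAAGT, in capitals:
C1qc: ggacggcagacACTTCCTCattttggcaca
Cd53: cactcagtctcACTTCCTCactcttctcgc
Ctss: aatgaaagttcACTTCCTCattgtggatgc
Pf4: ttctgcagagcACTTCCTCatcctgtatcc
They lie at chr4:136893091-136893120 and chr3:106790125-106790154 on the minus strand, and at chr3:95526773-95526802 and chr5:90772414-90772443 on the plus strand, in that order. The capitals begin at -195 from the start site in C1qc, 6 in Cd53, -2 in Ctss and -10 in Pf4. The ratios of these 4 genes were 0.53, 0.25, 0.58 and 0.27 on replicate 1, and -0.02, -0.05, 0.11 and -0.20 on replicate 2. A match is a description of the letters and not of a bound site.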

How the data were processed

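RNA levels were measured on 2 Agilent 2-colour arrays of 60-base oligos with 4 spots each, both groups on each array. The mean and background median intensity of each spot and the processed intensity per channel were deposited on a linear scale, per the file headers. The deposited log10 ratio is red over green of the processed intensities, per the file headers. Flags for background, saturation and outliers are other values of 0 or 1 in the deposited files. Spots were quantified in Agilent Feature Extraction, version 10.7.3.1 by the submitters' processing notes. The authors' series table, deposited as a score (a signed fold of unstated method), served as an alternative only.

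Background was corrected with normexp (offset 50), and ratios were normalized by loess within each array (17263 control spots had weight 0), using limma (version 3.58.1, R 4.3.3). Outlier spots (3.57% and 3.9%) were left out, 0 spots were saturated, and the sign of replicate 2 was turned to give Rbpj-cKO over control throughout. Of the oligos, 28328 were named through their accession in a RefSeq gene table, 3400 through their symbol, and 7701 kept the file's name. An oligo was kept with at least 2 spots well above background in 1 channel on each array (26980 oligos), and the brightest oligo stood for a gene (20495 genes, 5113 with more than 1 oligo). The mean log2 ratio was tested against 0 with limma's lmFit and eBayes (1 residual and 5.57 prior degrees of freedom, Benjamini-Hochberg over all genes). The procedure was also run on simulated data, in which the arrays varied independently and the changed genes moved more than any member here. That simulation does not show how the fit behaves where the ratios of the arrays run against each other, as they did here. The alternatives were the processed log ratio, median centring, other filters, the mean of a gene's oligos, moderation with an intensity trend, kept outliers, the series table, and leaving out each array. With 2 arrays and 4 channels, the number of arrays limits the precision.

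The members and all lists were chosen with earlier results of these data known. All measured members are given, with their other oligos where these differed. From each other list, up to 4 genes with the largest mean ratio among those with 1 sign on both arrays are named. Some list genes are not reported here. Spots were counted as "well above background" as the scanner software sets it. Any other gene, such as the other measured genes of the neutrophil, lymphocyte and mesothelial lists, was named after its values were seen. Columns of sample values left unmapped numbered 0.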

Additional observations from a re-analysis of the deposited data

Results flagged for a closer look

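For 15 members the male and the female pair ran in opposite directions. Of the 29 measured members, 13 were above 0 on replicate 1 only and 2 on replicate 2 only. These shares were 34.3% and 34.9% over all genes, so opposite signs were no more frequent in the members. There is 1 array per sex, and the dyes changed with it, so the difference was not tested. Male minus female, the gap in log2 ratio was widest for C1qa (0.75), Fcgr3 (0.69) and Itgam (0.60, brightest oligo). It was 0.55 for C1qc, 0.54 for C1qb and 0.54 for Mrc1. Pf4 had 0.48, Lyve1 0.46, Fcer1g 0.46, Lyz2 0.42 and Itgb2 0.38. The pan-leukocyte genes Ptprc and Cd53 each had 0.31. The difference had the other sign for Cd36 (-0.14) and Ccl4 (-0.41).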

How the results depend on the processing

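The count of members with an adjusted p under 0.05 was 0 in limma under every alternative that kept both arrays, and the lowest adjusted p of a member was 1. Over all genes, that count was 0, but 2 with the processed log ratio and 5 with an intensity trend and robust moderation. Members above 0 on both arrays numbered 14, but 5 with median centring in place of loess, where all genes shifted to medians of 0.123 and -0.135, the members to 0.428 and -0.118, and 11.3% of all genes were above 0 on both. With the mean of a gene's oligos there were 11, with the processed log ratio 15, and under the remaining alternatives with both arrays 14. Leaving out 1 array, which leaves a value with no test, gave 16 (without replicate 1) to 27 (without replicate 2) members above 0, and 13 and 2 below 0, beside 0 on both. Members at least 1.5-fold different numbered 0 to 1 with 1 array left out. The median ratio of the members was 0.152. It ran from 0.117 (no filter, 32 genes) to 0.198 (the authors' table) under the alternatives with both arrays, and from 0.0163 to 0.285 with 1 array left out. Of 261 values of single members under alternatives with both arrays, 261 kept the sign of the mean. Many of these could not change sign. Moderation with an intensity trend changes no ratio, and the other filters gave these members the same ratios. Leaving out the repeat oligos changed only Itgam. Chosen after seeing the data, leaving out the repeat oligos gave a median of 0.152. Leaving out Cd36, Lyve1 and Pf4, genes of other cells too, gave 0.182, with 14 of 26 above 0 on both arrays beside 16.1% of all genes. These 3 had means of 0.05, 0.02 and 0.04 and opposite signs on the arrays, so without them the median and the share could not fall. Each ratio already pairs Rbpj-cKO with the control on the same array, and the replicates form 1 group, so no further pairing was made.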

Other observations

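The levels of the neutrophil genes S100a8 and S100a9, named after their values were seen, are given here per channel, unscaled between the arrays. S100a8 had 438 in male control, 388 in male Rbpj-cKO, 67.5 in female control and 115 in female Rbpj-cKO. S100a9 had 1410, 1211, 224 and 409 in the same order. Each array is 1 pair of RNA samples, so embryo, sex and array cannot be told apart here.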
